A study of Mus musculus with 12 samples.

Results

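The 14 short hairpin RNAs (shRNAs) directed at the subunits of casein kinase 2 (CK2) were followed through a pooled knockdown screen in mouse embryonic stem cells (mESCs). A hairpin was taken by name only, when the symbol in its row name was CSNK2A1, CSNK2A2 or CSNK2B. This gave 5 hairpins of Csnk2a1, 4 of Csnk2a2 and 5 of Csnk2b among the 3243 hairpins and 732 gene symbols of the count table. The genes themselves were chosen with earlier results of these data known. Each hairpin is called here by the number that precedes its symbol in the table. The hairpins of one gene share that target and are not replicates of each other.

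All 4 groups came from E14 mESCs that carried a UHRF1-GFP transgene, so that GFP fluorescence stood in for the amount of UHRF1, the partner of DNMT1 in maintenance DNA methylation. The cells were transduced in Serum/LIF with the TRC lentiviral mouse kinase library and selected in puromycin. The first group, Serum/LIF day 0, was collected when the culture was divided, and the second, Serum/LIF day 7, after 7 further days in serum with LIF. The other 2 groups were grown for 7 days in serum-free 2i medium, which holds LIF, the MEK inhibitor PD0325901 (1 μM) and the GSK3 inhibitor CHIR99021 (3 μM), and were then separated by FACS into cells with UHRF1-GFP signal (2i GFP+) and cells without it (2i GFP-). The screen asked which hairpins were over-represented among the cells that kept UHRF1-GFP in 2i. Each group had 3 libraries, A, B and C. GFP reports the transgene product, not the endogenous protein, and no library measured how far any hairpin lowered its target. For Csnk2b the study did so in separate cell lines. It reported shRNAs that lowered Csnk2b by qPCR, and UHRF1 protein kept in 2i in those lines by Western blot.

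CK2 is a constitutively active serine/threonine kinase that phosphorylates a very broad set of acidic substrates. The holoenzyme is a tetramer in which a dimer of the regulatory subunit, encoded by Csnk2b, binds catalytic subunits encoded by Csnk2a1 (alpha) and Csnk2a2 (alpha prime). The beta subunit sets substrate choice and stability of the complex and is needed for viability of mouse embryos, as is Csnk2a1, whereas male mice without Csnk2a2 survive but are infertile.

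The study listed knockdown clones with their sequences for 4 of the library's genes, Csnk2b among them. The 5 Csnk2b sequences are shown because the sum of its hairpins rose further between the sorted fractions than that of either catalytic subunit. They are the 21-base antisense strands, written 5′ to 3′ with the seed (bases 2 to 8) in capitals.
TRCN0000025054: tTTCCAACatttgtgcgatgc
TRCN0000025056: tTCCAGGTctaagatcatgtc
TRCN0000025058: aTGCACCAtgaagagcatgtg
TRCN0000025055: aAGAATTCattaccacggagc
TRCN0000025057: aTGGATCTtgaaaccatagag
The 5 seeds differed from each other and from the seeds of the other sequences listed, 20 in all. The longest run of bases shared by any of the 10 pairs was 5, and the number of G and C bases ran from 8 to 10, so these clones were unlike in sequence while sharing 1 target. No source used here links the clone names to the hairpin numbers 1931 to 1935 of the count table, so no count below belongs to a particular sequence.

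The 12 libraries held 2435551 to 5466825 counts. The 2i GFP+ libraries stood apart: 1538 to 1906 hairpins had at least 1 count there, against 2782 to 3053 in the other 9 libraries, and library B of 2i GFP+ had both the fewest counts and the fewest hairpins. Levels are therefore given as CPM, that is counts set to a common library total, scaled by TMM, whose factors were 0.630 to 0.712 in 2i GFP+ and 1.08 to 1.21 elsewhere, and each comparison is read against the share of all hairpins that passed the same test. Intervals and limits from counts cover counting error only. CK2 hairpins made up 0.719% ± 0.0507 of all counts at day 0 (SD, n = 3, as for all means below), 0.358% ± 0.00922 at day 7 of Serum/LIF, 0.505% ± 0.0413 in 2i GFP- and 1.25% ± 0.262 in 2i GFP+. 

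Hairpin 1932 made up most of the counts of Csnk2b, the regulatory subunit. It held 82.0% to 93.2% of the mean Csnk2b level in each group. Its level at day 0 was 2673, 2112 and 2425 CPM in libraries A, B and C, which placed it at or above 99.7% of hairpins. After 7 days in Serum/LIF it was at 406, 383 and 353 CPM. In 2i GFP- cells it was at 1011, 948 and 924 CPM, and in 2i GFP+ cells at 10548, 8997 and 9664 CPM. Every library of 2i GFP+ was thus above every other library, every day 0 library above every 2i GFP- library, and every 2i GFP- library above every Serum/LIF day 7 library. The order was that of raw counts in shares as well: 0.666% of counts in 2i GFP+, 0.289% at day 0, 0.105% in 2i GFP- and 0.0427% at day 7 of Serum/LIF.

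Between the sorted fractions, hairpin 1932 was 10.5-fold higher in 2i GFP+ than in 2i GFP- (log2 fold change 3.40 ± 0.137 SE, adjusted p = 0.000107 by edgeR's quasi-likelihood test with Benjamini-Hochberg adjustment, used throughout), the fifth smallest p of 2600 hairpins tested. A hairpin is called enriched or depleted here when its adjusted p was below 0.05 and its difference more than 2-fold, which 8.58% of those 2600 hairpins were in the upward and 23.5% in the downward direction. Between 2i GFP+ and Serum/LIF day 7 the difference was 26.7-fold (log2 4.74 ± 0.127, adjusted p = 4.02e-05). It was also 2.53-fold higher in the 2i GFP- cells than at day 7 of Serum/LIF (log2 1.34 ± 0.118, adjusted p = 0.000204). From day 0 to day 7 in Serum/LIF it fell 6.29-fold (log2 −2.65 ± 0.125, adjusted p = 5.22e-05), with the smallest p of the 3028 hairpins tested. These 4 comparisons share libraries and are not independent of each other. Each of the 4 calls held in all of the 20 alternative fits, in which its log2 fold change ran from 2.66 to 3.44, from 3.96 to 4.79, from 1.29 to 1.39 and from −2.76 to −2.57, and in the day 7 against day 0 comparison it had the smallest p in all 20.

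Hairpin 1933 of Csnk2b showed the larger fold difference between the sorted fractions, from a far lower level. Its counts were 5168, 682 and 5077 in 2i GFP+ libraries A, B and C, against 142, 204 and 59 in 2i GFP-, 144, 321 and 269 at day 7 of Serum/LIF, and 677, 195 and 2 at day 0. The lowest 2i GFP+ library, B, lay above all libraries of the 2i GFP- and Serum/LIF day 7 groups on the CPM scale, at 445 CPM against at most 56.4 in 2i GFP-. The difference between the fractions was 32.1-fold (log2 5.0 ± 0.735, adjusted p = 0.00736), and against Serum/LIF day 7 it was 29.4-fold (log2 4.88 ± 0.667, adjusted p = 0.00311). The call between the fractions was lost in 3 of 20 alternatives, among them those without library A or C of 2i GFP- (adjusted p up to 0.0749). Day 7 did not differ detectably from day 0 (log2 −0.34, adjusted p = 0.900), where the 3 libraries themselves ran from 0.461 to 129 CPM.

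The other 3 Csnk2b hairpins did not follow these. Hairpin 1931 had 34, 66 and 78 counts in 2i GFP- and 48, 69 and 137 at day 7 of Serum/LIF, and none in any 2i GFP+ library. With 3 counts per library as the limit that a count of 0 allows, it was at least 14.2-fold lower in 2i GFP+ than in 2i GFP- (adjusted p = 0.00857) and at least 11.5-fold lower than at day 7 of Serum/LIF (adjusted p = 0.00464). In both comparisons hairpin 1931 passed the filter on low counts through the other group alone. These tests could therefore only find it lower in 2i GFP+ or find no difference. The call between the fractions was lost in 1 of 17 alternatives, that with the library letter as a replicate block (adjusted p = 0.193). The filter left hairpin 1931 untested in the fits without any 1 of the 2i GFP- libraries. Hairpin 1934 had 0, 603 and 332 counts in 2i GFP+ and 74, 67 and 0 in 2i GFP-, so that the groups overlapped and the difference had a 95% interval from −2.70 to 10.2 on the log2 scale (adjusted p = 0.345). Hairpin 1935 had 47, 0 and 137 counts in 2i GFP+ and none in 2i GFP-, and was left untested there by the filter on low counts. It had been at 139, 367 and 132 counts on day 0 and was at 7, 10 and 0 on day 7 of Serum/LIF (log2 −5.27 ± 1.61, adjusted p = 0.0656). Hairpin 1931 was likewise lower in every day 7 library than in every day 0 library, 9.60 to 22.4 CPM against 37.2 to 87.5 CPM, without passing the test (log2 −2.23 ± 0.752, adjusted p = 0.0895).

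Among the catalytic subunits, the 5 hairpins of Csnk2a1 gave 1 enriched hairpin between the sorted fractions. The study listed Csnk2a1 among the genes with more than 1 hairpin identified in its screen. Here edgeR's exactTest, which the study named, also called only hairpin 2464 of these 5, and the cause of the difference was not tested. Hairpin 2464 had 1586, 615 and 1813 counts in 2i GFP+ and 360, 118 and 109 in 2i GFP-, and was 8.84-fold higher in 2i GFP+ (log2 3.14 ± 0.663, adjusted p = 0.0124) with no overlap of the groups. It was also 7.14-fold above Serum/LIF day 7 (log2 2.84 ± 0.415, adjusted p = 0.00329). Its call between the fractions was lost in 6 of the 20 alternatives, among them those without any 1 of the 2i GFP- libraries, where the adjusted p reached 0.168.

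Hairpins 2447 and 2426 of Csnk2a1 were split by 2i GFP+ library B. Hairpin 2447 stood at 766 and 752 CPM in libraries A and C of 2i GFP+ and at 38.5 CPM in library B, against 72.5 to 99.9 CPM in 2i GFP-. Hairpin 2426 stood at 554 and 390 CPM in A and C and at 22.8 CPM in B, against 14.1 to 101 CPM in 2i GFP-. Neither passed the test with all libraries (log2 2.57 ± 1.04, adjusted p = 0.119, and log2 2.20 ± 1.28, adjusted p = 0.255). Without library B of 2i GFP+ both were called (adjusted p = 0.000348 and 0.0254), and the number of enriched CK2 hairpins went from 4 to 6 while the share of all hairpins that were enriched went from 8.58% to 16%. Library B was also the shallowest of all 12 libraries, and the part of depth in these values was not tested.

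Of the remaining Csnk2a1 hairpins, 2484 was depleted in 2i GFP+. It had 317, 135 and 227 counts in 2i GFP- and 0, 0 and 1 in 2i GFP+, a ratio of 531 with a 95% counting interval from 95.02 to 21012 (adjusted p = 0.00736). Hairpin 2484 passed the filter on low counts through the 2i GFP- libraries alone, so this test could only find it lower in 2i GFP+ or find no difference. Its call was lost in 1 of 17 alternatives, that with the replicate block (adjusted p = 0.190), and the filter left it untested without any 1 of the 2i GFP- libraries. At day 0 the same hairpin had already ranged from 1 to 700 counts between libraries. Hairpin 2491 had 154, 0 and 232 counts in 2i GFP+ and 232, 141 and 168 in 2i GFP-, and the interval of its difference ran from −4.30 to 3.49 on the log2 scale (adjusted p = 0.879).

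Csnk2a2, the alpha prime subunit, also had 1 enriched hairpin between the fractions. Hairpin 2365 was at 2147, 633 and 2490 CPM in 2i GFP+ and at 329, 406 and 451 CPM in 2i GFP-. Library B was again the lowest of its group, but the groups did not overlap, and the difference was 4.54-fold (log2 2.18 ± 0.515, adjusted p = 0.0187). This call was lost in 12 of 20 alternatives, among them the fits without any 1 of the 2i GFP- libraries and without library A or C of 2i GFP+, with adjusted p up to 0.194.

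Hairpin 2368 was the most even member, and the most abundant of the 14 on average in Serum/LIF day 7 and 2i GFP- cells. It was at 1340, 1239 and 1138 CPM on day 0, at 1706, 1743 and 1608 CPM on day 7 of Serum/LIF, at 2372, 2210 and 2906 CPM in 2i GFP- and at 3360, 3915 and 3402 CPM in 2i GFP+. No 2 of these groups overlapped. The step between the sorted fractions did not pass the test (log2 0.58 ± 0.189, adjusted p = 0.0624) and turned to −0.17 when libraries were scaled by total counts alone. The step from Serum/LIF day 7 to 2i GFP+ passed both the test and the 2-fold limit (log2 1.15 ± 0.150, adjusted p = 0.00311), while those from Serum/LIF day 7 to 2i GFP- (log2 0.57 ± 0.110, adjusted p = 0.00889) and from day 0 to day 7 (log2 0.45 ± 0.102, adjusted p = 0.0264) were below 2-fold.

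Hairpin 2367 of Csnk2a2 fell in Serum/LIF as hairpin 1932 did. It went from 779, 577 and 771 CPM on day 0 to 147, 168 and 141 CPM on day 7, a 4.64-fold fall (log2 −2.22 ± 0.187, adjusted p = 0.000787), the sixth smallest p of that comparison. In 2i GFP- cells it was at 327, 377 and 398 CPM, 2.43-fold above Serum/LIF day 7 (log2 1.28 ± 0.196, adjusted p = 0.00294). In 2i GFP+ it was at 535, 314 and 422 CPM, and the interval of the difference between the fractions ran from −0.71 to 1.23 on the log2 scale (adjusted p = 0.679). The last hairpin of the gene, 2369, had 38, 66 and 2 counts in 2i GFP- and none in 2i GFP+. It was at least 7.71-fold lower in 2i GFP+ than in 2i GFP- (adjusted p = 0.0432, lost in 8 of 16 alternatives, those without library A or C of 2i GFP+ among them) and at least 35.2-fold lower than at day 7 of Serum/LIF (adjusted p = 0.00410). In both comparisons hairpin 2369 passed the filter on low counts through the other group alone, so it could only be found lower in 2i GFP+ or not different.

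Counted over all 14 hairpins, 4 were enriched in 2i GFP+ against 2i GFP-, 3 were depleted, 6 did not pass and 1 was not tested. That was 30.8% enriched and 23.1% depleted of the 13 CK2 hairpins tested, against the 8.58% and 23.5% of the whole table. The depleted share of CK2 hairpins was thus near that of the whole table. As the genes were chosen with earlier results of these data known, the higher enriched share is a description only. The 3 depleted hairpins had passed the filter on low counts through the 2i GFP- libraries alone, so they could not have been called enriched. In 5 CK2 hairpins every 2i GFP+ library lay above every 2i GFP- library, as in 13.6% of all tested, and in 3 every one lay below, as in 46% of all tested. The median log2 fold change was 2.18 over the 13 CK2 hairpins and −0.88 over all tested, and putting hairpins with no count in a group at their limit left these at 2.18 and −0.88. The enriched count was 1 without library A or C of 2i GFP- (2.75% of all tested in each) and 2 without its library B (3.49%), where the filter then left fewer hairpins to test, and the depleted count was 0 in each of these fits, in which 0 or 1 hairpin of the whole table was depleted. With the same hairpins kept in the test the enriched count was 3 without library A (5.04% of all tested) and 2 without B (5.31%) or C (4.96%), and the depleted count was 2 or 3 (19.7% to 20% of all tested). With the library letter as a replicate block, only hairpin 1932 was enriched (2.54% of all tested) and 0 were depleted (0.0385% of all tested).

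Against Serum/LIF day 7, 6 of 14 CK2 hairpins were enriched in 2i GFP+ (9.81% of all 2906 tested) and 3 depleted (31.9% of all tested). The enriched members were 1932 and 1933 of Csnk2b, 2464 of Csnk2a1, and 2365, 2367 and 2368 of Csnk2a2, so that 3 of the 4 Csnk2a2 hairpins were called, 2365 with a log2 fold change of 1.96 ± 0.509 (adjusted p = 0.0241) and 2367 with 1.54 ± 0.393 (adjusted p = 0.0229). The depleted members were 1931, 2369 and 2484, which passed the filter through the Serum/LIF day 7 libraries alone and could not have been called enriched. The enriched count was 2 without any 1 of the Serum/LIF day 7 libraries (4.27% to 4.79% of all tested), 4 without library A (8.51%) or C (8.95%) of 2i GFP+ and 9 without its library B (16.9%). The depleted count was 0 without any 1 of the Serum/LIF day 7 libraries (0.285% to 0.475% of all tested), where the filter left 2106 to 2110 hairpins to test. With the same 2906 hairpins tested, those fits gave 4 enriched (6.68% to 6.88% of all tested) and 3 depleted (28.1% to 28.6%). The 2i GFP- cells differed less from Serum/LIF day 7: 2 CK2 hairpins were enriched, 1932 and 2367 (4.16% of all 2981 tested), and none was depleted (4.83% of all tested), a count of 0 that edgeR's exactTest, DESeq2 and an unadjusted p below 0.05 also gave, 1 hairpin having been left out by the filter.

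In Serum/LIF alone, every CK2 hairpin that was called had fallen. From day 0 to day 7, 4 of 14 were depleted against 4% of the 3028 tested, and none was enriched against 3.43% (0 also with exactTest and with DESeq2, and 1, hairpin 2368, higher at an unadjusted p below 0.05). These were 1932 of Csnk2b, 2367 of Csnk2a2 and, in Csnk2a1, hairpin 2447 (log2 −1.93 ± 0.400, adjusted p = 0.0191) and hairpin 2491 (log2 −1.30 ± 0.362, adjusted p = 0.0492). In 7 of 14 every day 7 library lay below every day 0 library, as in 18% of all tested, and in 1, hairpin 2368, every one lay above, as in 20.3%. The median log2 fold change was −0.88 over the 14 and −0.02 over all tested. The calls of 2447 and 2491 were lost without library B or C of Serum/LIF day 7. That left 2 depleted hairpins, with 2.29% and 1.82% of all tested depleted. Without library A of Serum/LIF day 7 or C of day 0 only the call of 2491 was lost, which left 3 (1.92% and 3.75% of all tested). With the same hairpins tested 2447 was lost as well without library A of day 7, which left 2 (1.78% of all tested). Without library A of day 0 hairpin 1931 was called in place of 2491, with 4.51% of all tested depleted.

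Summing the counts of a gene's hairpins gave each subunit 1 value per library. Csnk2b was at 12297, 9835 and 11359 CPM in 2i GFP+, at 1083, 1041 and 971 CPM in 2i GFP-, at 457, 462 and 477 CPM on day 7 of Serum/LIF and at 2939, 2324 and 2585 CPM on day 0, with no overlap between any groups. The sum was 10.3-fold higher in 2i GFP+ than in 2i GFP- (log2 3.36 ± 0.145, adjusted p = 4.33e-05) and 5.92-fold lower at day 7 than at day 0 (log2 −2.57 ± 0.120, adjusted p = 1.55e-10). As most of it was hairpin 1932, it adds little to the values of that hairpin.

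Summed Csnk2a1 was at 1905, 462 and 1766 CPM in 2i GFP+ and at 376, 282 and 369 CPM in 2i GFP-. Within 2i GFP+, library B alone lay below the day 0 level of 676 to 886 CPM. It was 3.80-fold higher in 2i GFP+ than in 2i GFP- (log2 1.93 ± 0.562, adjusted p = 0.0455), a call that was lost in 7 of 10 alternatives (adjusted p up to 0.169), among them those without any 1 of the 2i GFP- libraries or without A or C of 2i GFP+. It fell 2.11-fold from day 0 to day 7 in Serum/LIF (log2 −1.08 ± 0.194, adjusted p = 0.000854). That fall was below 2-fold (log2 −0.96) without library B of either group. 

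Summed Csnk2a2 was at 6042, 4861 and 6314 CPM in 2i GFP+ and at 3039, 3011 and 3756 CPM in 2i GFP-, and the groups did not overlap. The difference passed the test but was below 2-fold (log2 0.74 ± 0.158, adjusted p = 0.0178). It was log2 0.145 with total count scaling (adjusted p = 0.594). The adjusted p was 0.0667 with the library letter as a replicate block, and 0.0655 to 0.107 without any 1 of the 2i GFP- libraries. Hairpin 2368 held on average 47.7% to 76.3% of the counts of this gene in each group. Day 0 and day 7 of Serum/LIF overlapped, at 2385 to 2822 and 2245 to 2484 CPM (adjusted p = 0.0814). Enriched sums made up 12.9% of the 721 symbols tested between the fractions, against 2 of these 3, and depleted sums 3.7% of the 729 symbols tested from day 0 to day 7, again against 2 of these 3. Set against Serum/LIF day 7, Csnk2b (log2 4.50 ± 0.134, adjusted p = 2.21e-05) and Csnk2a2 (log2 1.20 ± 0.135, adjusted p = 0.00233) were enriched in 2i GFP+ and Csnk2a1 did not pass (log2 1.76, adjusted p = 0.0537), with 15.4% of 725 symbols enriched. In 2i GFP- only Csnk2b was enriched against Serum/LIF day 7 (log2 1.14 ± 0.150, adjusted p = 8.50e-09), with 2.34% of 727 symbols enriched.

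The hairpins of a subunit did not all change alike between the sorted fractions. edgeR's test for unequal change among the hairpins of a symbol gave F = 6.95 for Csnk2a1 (adjusted p = 0.00193), F = 10.7 for Csnk2a2 (adjusted p = 0.000834) and F = 8.58 for Csnk2b (adjusted p = 0.00224), and it passed for 66.5% of the 669 symbols tested. In each subunit the hairpin that differed from the rest was one at or near 0 in 2i GFP+: 2484 of Csnk2a1 (adjusted p = 0.00105), 2369 of Csnk2a2 (adjusted p = 0.00178) and 1931 of Csnk2b (adjusted p = 0.00190), against 22.4% of all 2549 hairpins in this test. These 3 hairpins passed the filter on low counts through the 2i GFP- libraries alone, so they could only be lower in 2i GFP+, while hairpin 1935, absent from 2i GFP-, was left out. The test therefore gives no support beyond their counts. Without any 1 of the 2i GFP- libraries the filter dropped those 3 hairpins and none of the 3 genes passed (adjusted p from 0.370 to 0.810), and with the same hairpins kept in the test all 3 passed (adjusted p from 0.00279 to 0.0211).

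The profile of each subunit over the 12 libraries was set against those of 606 symbols with at least 4 hairpins, by the root mean square difference of log2 (summed CPM + 1) after each gene's own mean was subtracted. Nearest to Csnk2a2 were Pctk2 (0.151), a cyclin-dependent kinase gene now named Cdk17, the atypical MAP kinase gene Mapk6 (0.171) and the uridine kinase-like gene Uckl1 (0.183), against a median of 0.802 over all candidates. Nearest to Csnk2a1 were the casein kinase 1 gene Csnk1e (0.437), Map3k14, which encodes the NF-κB-inducing kinase (0.476), and the MAP kinase phosphatase gene Dusp9 (0.477), with a median of 1.09. Among those nearest to Csnk2b were the splicing kinase gene Clk4 (0.815), which was the nearest, and the Hippo pathway kinase gene Stk3 (0.904), with a median of 1.87. No gene came as near to Csnk2b as those nearest to the catalytic subunits did to them. The measure is not scaled by the size of a gene's own changes, however, and the median over candidates was largest for Csnk2b too. Clk4 rose to 6913 CPM in 2i GFP+ but stood at 1070 CPM on day 0 and 882 CPM on day 7 of Serum/LIF, without the fall that Csnk2b showed. Between the subunits the difference was 0.690 for Csnk2a1 and Csnk2a2, 1.14 for Csnk2a1 and Csnk2b and 1.31 for Csnk2a2 and Csnk2b. These are descriptions over libraries that share depth and group.

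Casein kinase 1, a kinase family distinct from CK2 despite the name, and genes whose products bind CK2 or are its substrates in some mammal were counted for comparison. Of 28 hairpins against 6 casein kinase 1 genes, 23 were tested between the fractions, and 2 were enriched (8.70%) and 5 depleted (21.7%), near the shares of the whole table, with a median log2 fold change of −0.82. The enriched ones were 1212 of Csnk1g2 (log2 2.54 ± 0.415, adjusted p = 0.00736) and 1202 of Csnk1g3 (log2 1.91 ± 0.483, adjusted p = 0.0252). Hairpin 1208 of Csnk1d and hairpin 1234 of Csnk1a1 were at 0 in 2i GFP+. Of 86 hairpins against 16 partner or substrate genes, 74 were tested, and 8 were enriched (10.8%) and 16 depleted (21.6%), with a median of −0.64. The smallest p among them was that of 3002 of Ccnh, the cyclin H gene (log2 3.74 ± 0.329, adjusted p = 0.00226), followed among the enriched by 150 of Chek1, a checkpoint kinase gene (log2 2.26 ± 0.441, adjusted p = 0.00953), and 258 of Ksr1, a scaffold of the MAP kinase cascade (log2 1.06 ± 0.209, adjusted p = 0.00969).

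In Serum/LIF the partner list was close to the table and the casein kinase 1 list was above it in both directions. From day 0 to day 7, 3 of 28 casein kinase 1 hairpins were enriched (10.7%, against 3.43% of all tested) and 5 depleted (17.9%, against 4%), the latter including 1202 of Csnk1g3 (log2 −2.82 ± 0.247, adjusted p = 0.000787), and of 83 partner hairpins tested 3 were enriched (3.61%) and 2 depleted (2.41%). Between 2i GFP+ and Serum/LIF day 7, 3 of 28 casein kinase 1 hairpins were enriched (10.7%) and 11 depleted (39.3%), and of 82 partner hairpins tested 8 were enriched (9.76%) and 25 depleted (30.5%), against 9.81% and 31.9% of the table. Between 2i GFP- and Serum/LIF day 7, 3 of 28 casein kinase 1 hairpins were enriched (10.7%) and 0 depleted, and 1 of 82 partner hairpins was enriched (1.22%) and 8 depleted (9.76%), against 4.16% and 4.83% of the table. Hairpin 1202 of Csnk1g3 had the same order of groups as hairpin 1932, with means of 807 ± 242 CPM in 2i GFP+, 678 ± 179 CPM at day 0, 225 ± 86.2 CPM in 2i GFP- and 95.3 ± 8.87 CPM at day 7 of Serum/LIF.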

How the data were processed

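Genomic DNA of each library was amplified across the integrated hairpins by PCR and sequenced on an Illumina NextSeq 500, and the authors aligned the reads with Bowtie2 under standard parameters and deposited raw counts per hairpin, made with a Python script. No tool version and no hairpin reference was given in the sources used here, and the library titles carry the word "combined", which no source explains. The reads have no molecular identifiers. The transduced cells were grown in triplicate after selection, with no mention of separate infections, so the p-values cover only differences among these libraries.

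The deposited counts were tested with edgeR 4.0.16 (R 4.3.3, limma 3.58.1) by glmQLFit and glmQLFTest with TMM scaling, for hairpins that reached 0.5 CPM in 3 or more of the 6 libraries, each comparison fitted alone. P-values were adjusted over all hairpins, or symbols for summed counts, in the comparison, and a call needed an adjusted p below 0.05 and a log2 fold change beyond 1 in size, the limits the study used. The study named edgeR's exactTest, which was kept as an alternative beside DESeq2 1.42.0. CPM levels carry TMM factors over all 12 libraries, and fold changes those of the libraries compared. Standard errors are the log2 fold change over the square root of F. Unequal hairpins were tested with diffSpliceDGE. The scripts were tested on simulated data.

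All 14 CK2 hairpins are named. From the lists at most 3 called hairpins per direction with the smallest p, and the 3 nearest symbols per subunit, were named by rule, except 1 symbol that is not reported here. The members and lists were chosen with earlier results of these data known. Cdk1 and Cdk11b were matched through older symbols.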

Additional observations from a re-analysis of the deposited data

How the results depend on the processing

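Each count of calls was recomputed with RLE or total count scaling, no filter or a stricter one, exactTest, DESeq2, all 4 groups in 1 fit, a replicate block and each library left out in turn. Leaving out a library with the same hairpins tested was added after seeing the data. Of 254 alternative counts, 214 stayed within 1.5 times the main count. These include main counts of 0 that stayed at 0 and changes as large as that from 4 to 6, so the number does not measure how firm the calls were. The cause of the other changes was not tested, except where fewer hairpins passed the filter.

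Total count scaling moved the median of all hairpins tested between the sorted fractions from −0.88 to −1.61. With it, CK2 hairpins enriched in 2i GFP+ against Serum/LIF day 7 went from 6 to 3. The share of all tested that were enriched there went from 9.81% to 5.68%. Summed subunits enriched in 2i GFP+ went from 2 to 1 against Serum/LIF day 7 and from 2 to 1 against 2i GFP-. That scaling turned hairpins 2367 (−0.46) and 2368 (−0.17) between the fractions, and the share of calls that were enriched went from 26.8% to 14.7% there, from 23.5% to 13.4% against Serum/LIF day 7 and from 46.2% to 31.1% between day 7 and day 0. Hairpin 2491 turned to 0.20 without library B of 2i GFP+, and to 0.17 with the same hairpins tested; leaving out 1 library moved it between −1.03 and 0.20, or between −1.04 and 0.17. With all 4 groups in 1 fit, 1 hairpin was enriched in 2i GFP- against Serum/LIF day 7 and 2 were depleted from day 0 to day 7. The share of all hairpins called in that fit was not counted, so these changes cannot be read as particular to CK2.

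The study grew 2i cells in triplicate and then sorted them, so both fractions came from the same 2i cultures. The sources used here do not say whether libraries with the same letter came from 1 culture. Deviations of libraries with the same letter correlated at −0.0412 to 0.0202, and correlations near 0 cannot settle whether they are paired. The main fits treated the libraries as unpaired. With the letter as a replicate block, 1 CK2 hairpin was enriched and 0 depleted between the fractions, 1 enriched and 0 depleted in 2i GFP+ against Serum/LIF day 7, 2 depleted from day 0 to day 7, and 1 summed subunit enriched between the fractions. Over all hairpins the block left 66 enriched and 1 depleted between the fractions, 86 enriched (2.96%) and 5 depleted (0.172%) in 2i GFP+ against Serum/LIF day 7, and 72 depleted (2.38%) from day 0 to day 7. A library correlated best with its own letter in 4, 2, 4 and 0 of 6 cases in the 4 comparisons.

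Leaving out 1 library gave 1 to 6 enriched (2.75% to 16% of all tested) and 0 to 3 depleted hairpins (0% to 38.3%) between the fractions. It also gave 1 to 2 summed subunits enriched and 0 to 3 subunits with unequal hairpins. With the same hairpins tested, 2 to 6 were enriched (4.96% to 15.4% of all tested). In 2i GFP+ against Serum/LIF day 7, leaving out 1 library gave 2 to 9 enriched (4.27% to 16.9% of all tested) and 0 to 3 depleted (0.285% to 47.8%). From day 0 to day 7 it gave 2 to 4 depleted hairpins (1.82% to 4.51% of all tested), 2 to 4 with the same hairpins tested (1.72% to 4.69%), and 1 to 2 depleted sums. Hairpins at 0 in 2i GFP+ limit the fold change to a bound.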
